A study of Mus musculus with 72 samples.

Results

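Livers of germ-free wild-type mice (GF WT) were compared with livers of wild-type mice kept with their microbiota under specific pathogen-free conditions (SPF WT), all taken at zeitgeber time 22 (ZT22, 22 h after lights on, late in the dark phase when mice eat). The members were chosen by their labels alone: 3 GF WT and 3 SPF WT libraries of ZT22, 6 of the 72 libraries of the series. The comparison asks which liver transcripts differ with the presence of microbes at this hour in mice with an intact liver clock.

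The series measured RNA of whole liver in 4 groups of male mice (C57BL/6 in the labels, a C57BL/6J background in the methods), WT and liver Bmal1 knockout (LKO), each SPF and GF, with 3 mice at each of 6 ZT. WT mice of both microbial states had the genotype Bmal1 fl/fl and no Cre, so both sides of the comparison carried the floxed allele, while LKO mice also carried Albumin-cre, whose promoter is active in hepatocytes. The mice lived in 12 h of light and 12 h of darkness on autoclaved chow, entered single housing at 10 to 14 weeks of age for 14 days of acclimatization, and were killed after 3 weeks. The GF line was rederived from the SPF line and lived in flexible film isolators, and SPF mice were bred in the animal house, so microbial status cannot be told apart from colony and housing. The labels name 3 replicates a group, and each library was taken as 1 mouse.

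As background, the liver receives the blood that drains the gut and with it bacterial metabolites and the bile acids that bacteria have modified. Bile acids and other gut-borne compounds act on nuclear receptors of the hepatocyte, such as FXR and PXR, and PXR drives transcription of Cyp3a cytochromes. Cholesterol synthesis is run by the transcription factor SREBP2, which is released when sterols in the endoplasmic reticulum are scarce, and bile acids are made from cholesterol.

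The 6 libraries held 18779527 to 20202333 counts assigned to genes. Alb took the most reads in each, 7.85% to 11.3%, and genes of the mitochondrial chromosome took 7.07% to 8.12%. That share lacks mt-Co2, mt-Co3, mt-Atp6, mt-Atp8, mt-Nd3 and mt-Nd4l, which had 0 counts in all 6 libraries. The hepatocyte markers were abundant (summed CPM 101720 to 109230 in SPF WT and 112520 to 163500 in GF WT livers), where CPM is counts per 1000000 after scaling by edgeR's TMM factors. These sums did not overlap between the groups, and the 100 most abundant genes took 44.4% to 44.9% of the counts in SPF WT and 45.4% to 48.3% in GF WT libraries. The TMM factors were 0.943 to 1.04 in SPF WT and 0.843 to 0.894 in GF WT libraries. Markers of pancreatic acinar cells (5 genes) summed to 0.193 to 0.452 CPM. Those of adipocytes (5 genes, Lep at 0 in all 6) summed to 0.05 to 0.29 CPM in SPF WT and 0.31 to 0.743 CPM in GF WT livers, low but without overlap. SPF WT replicate 1 stood apart. On the first principal component of the 500 most variable genes (35.1% of their variance) it scored -1.09, between SPF WT replicates 2 and 3 (-17.6 and -17.3) and the GF WT livers (10.3 to 14.4), and its nearest library was GF WT replicate 1. It was kept, and counts without it are given beside the main ones. Leaving it out was the only removal of 1 library that raised the number of genes passing the test (below). For most lists, counts without it therefore do not show the losses that the other removals gave. In bulk tissue, fewer cells of a type and less RNA per cell cannot be told apart.

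Of 13576 genes with enough counts to test, 70 (0.516%) passed edgeR's quasi-likelihood test at an adjusted p under 0.05 (Benjamini-Hochberg), 47 higher (0.346%) and 23 lower (0.169%) in GF WT than in SPF WT livers. Genes past this threshold are called below, and every log2 fold change is GF over SPF. The larger called differences included loss of the cytochrome Cyp3a11 and gain of the glutathione peroxidase Gpx6, and the called increases included 8 genes of cholesterol synthesis. A fold of 2 or more was reached by 31 of the 70, 15 up and 16 down. In all 70, the 3 GF values and the 3 SPF values did not overlap, which was also true of 19.7% of all genes tested (10.7% higher and 8.94% lower in GF). At an unadjusted p under 0.05 there were 2321 of the 13576 genes, and DESeq2's Wald test called 464 of the 13576. Without SPF WT replicate 1, edgeR called 223 genes higher and 175 lower of 13892 tested. Counts of list members at these settings, given below, are to be read beside these totals. The count of calls depended on single libraries: it was 398 without SPF WT replicate 1, 2 without SPF WT replicate 2, 27 without SPF WT replicate 3, 38 without GF WT replicate 1, 4 without GF WT replicate 2 and 2 without GF WT replicate 3. Cyp3a11 and Gpx6 were called under every one of 12 alternatives, and they were the only genes left where the count was 2. All 70 genes kept their direction under each alternative.

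**Figure D1:**
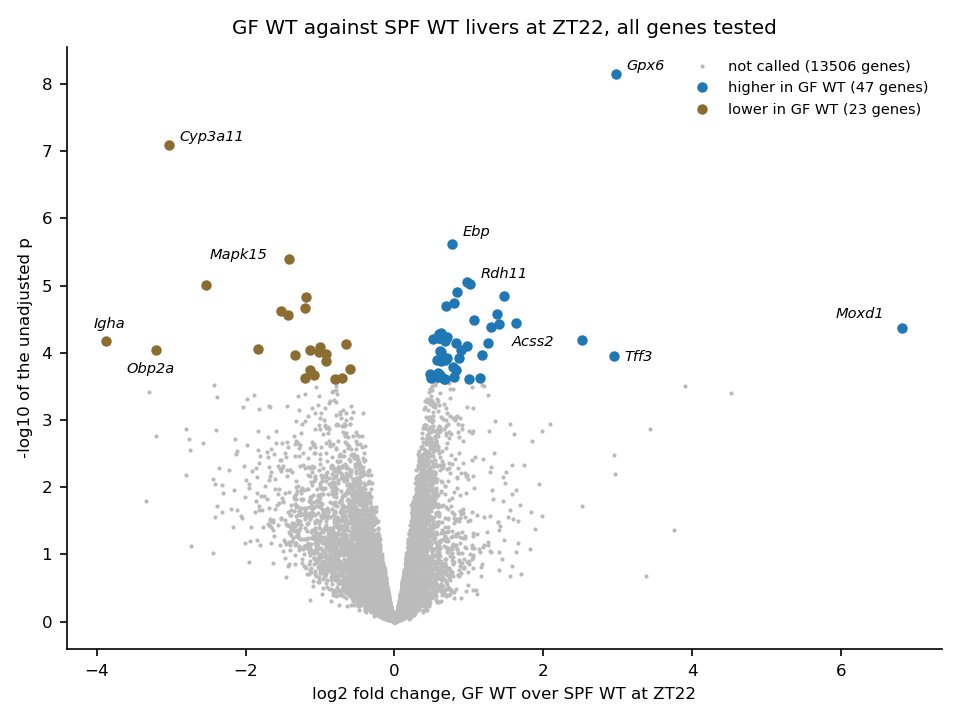
Each point is a gene tested between GF WT and SPF WT livers at ZT22 (3 against 3), with its log2 fold change on the horizontal axis and the -log10 of its unadjusted p from edgeR's quasi-likelihood test on the vertical axis. The 47 genes called higher in GF WT livers (blue) and the 23 called lower (brown) lie above the other tested genes (grey), with Gpx6 and Cyp3a11 highest.

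Cytochromes that oxidize drugs, steroids and bile acids gave the decrease with the smallest adjusted p. Cyp3a11 (chromosome 5, 145854426 to 145879964 of GRCm38, the span of its exons in the count table), the main hepatic Cyp3a enzyme of the mouse and a target of PXR, had 6835, 7011 and 7509 CPM in SPF WT livers (replicates 1, 2 and 3) and 1134, 724 and 748 CPM in GF WT livers. Every GF WT liver was far below every SPF WT liver. The mean went from 7118 ± 349.9 (SD, n = 3) to 869 ± 230.2 CPM (SD, n = 3), a fall of 8.19-fold (log2 fold change -3.03 ± 0.30 (SE), edgeR adjusted p = 0.000557). Cyp3a59, of the same gene cluster, had 53.2, 35 and 44.5 CPM in SPF WT and 17.9, 15.4 and 19.2 CPM in GF WT livers. It too was lower in each GF WT liver (log2 fold change -1.34 ± 0.25 (SE), edgeR adjusted p = 0.0328). Ces2a, a carboxylesterase that cleaves esters of drugs and lipids, had 419, 487 and 547 CPM in SPF WT and 354, 318 and 286 CPM in GF WT livers. It fell by less, without overlap (log2 fold change -0.60 ± 0.12 (SE), edgeR adjusted p = 0.0435). Reads of Cyp3a genes may fit several copies of this family and may have been left out or shared, so the level of each copy is uncertain.

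These were the 3 called members among 28 tested genes of the list of xenobiotic cytochromes and receptors, all lower (against 0.169% of all genes tested called lower), with 4 called lower and 0 higher by DESeq2 and a list median of 0.05 against 0.00 over all genes tested. Of the 28, 15 had a log2 fold change above 0. The groups did not overlap in 5 that were lower and 2 that were higher in GF WT livers. Over all genes tested these shares were 8.94% lower and 10.7% higher. Other members, picked out once their values had been seen, did not pass the test in either direction. Cyp3a25 was lower in each GF WT liver, with 846, 652 and 701 CPM in SPF WT and 408, 399 and 517 CPM in GF WT livers (log2 fold change -0.73 ± 0.17 (SE), edgeR adjusted p = 0.0715). Cyp2b10, a target of the receptor CAR, was too, with 80.7, 42.3 and 62.5 CPM in SPF WT and 22.5, 21.8 and 23.7 CPM in GF WT livers (log2 fold change -1.45 ± 0.38 (SE), edgeR adjusted p = 0.0968). Cyp2c39 (log2 fold change 0.80 ± 0.32 (SE), edgeR adjusted p = 0.222) and Aldh1a7 (log2 fold change 0.53 ± 0.17 (SE), edgeR adjusted p = 0.138) were the 2 that were higher in each GF WT liver. Cyp2b9 had the highest log2 fold change of the list with overlapping groups (log2 fold change 1.64 ± 0.90 (SE), edgeR adjusted p = 0.37). The receptors themselves had overlapping levels. Nr1i2, which encodes PXR, had 85.9, 83.9 and 71.7 CPM in SPF WT and 93.9, 82.2 and 87.8 CPM in GF WT livers, and Nr1i3, which encodes CAR, had 64.5, 56.2 and 42.1 CPM in SPF WT and 43.9, 56.9 and 53.5 CPM in GF WT livers. Cyp2e1 (log2 fold change 0.34 ± 0.17 SE) and Cyp1a2 (log2 fold change 0.23 ± 0.16 SE) were not called. Without SPF WT replicate 1 the list had 3 members called lower and 0 called higher, of 30, and a median of 0.15.

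**Figure D2:**
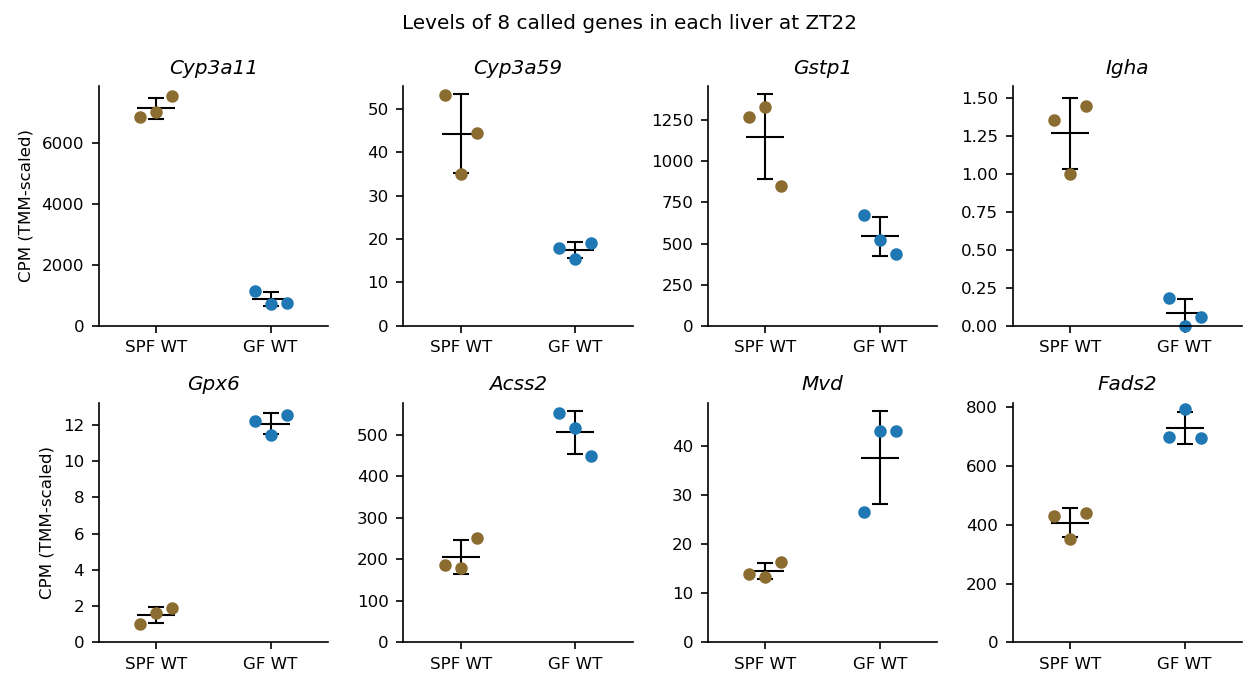
CPM of 8 called genes in each of the 3 SPF WT (brown) and 3 GF WT (blue) livers at ZT22, with the mean (wide mark) and SD (error bar), on linear axes from 0. In each panel the livers of the 2 groups do not overlap, and Cyp3a11 goes from 6835 to 7509 CPM in SPF WT down to 724 to 1134 CPM in GF WT livers.

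Genes of cholesterol synthesis formed the list with the most called members. Of 25 tested genes for synthesis, its control and sterol uptake, 8 were called higher and 0 lower (8 of 25, against 0.346% of all genes tested), and the median log2 fold change was 0.87. At an unadjusted p under 0.05 there were 22, and DESeq2 called 19. All 25 had a log2 fold change above 0, from 0.21 (Srebf2) to 1.38 (Mvd), and in 23 of them the lowest GF WT liver lay above the highest SPF WT liver (10.7% of all genes tested). The list was looked at with earlier results of these data known, so these counts describe it. The median of the 25 genes' log2 levels, each centred on its mean over the 6 libraries, was -0.29, -0.56 and -0.39 in SPF WT replicates 1, 2 and 3 and 0.21, 0.46 and 0.47 in GF WT replicates 1, 2 and 3. Replicate 1 of each group lay nearest to the other group. Without SPF WT replicate 1, 12 members were called, and 4 without SPF WT replicate 3 or without GF WT replicate 1. None was called without SPF WT replicate 2, GF WT replicate 2 or GF WT replicate 3, with medians of 0.75, 0.85 and 0.82.

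The enzymes are given in pathway order. At the entry, Hmgcs1, the cytosolic HMG-CoA synthase, had 402, 348 and 387 CPM in SPF WT and 532, 824 and 989 CPM in GF WT livers, without overlap and without passing the test (log2 fold change 1.04 ± 0.27 (SE), edgeR adjusted p = 0.0851). The next steps phosphorylate and decarboxylate mevalonate. Pmvk, phosphomevalonate kinase, had 72.2, 62.6 and 78.2 CPM in SPF WT and 136, 157 and 155 CPM in GF WT livers, higher in each GF WT liver (log2 fold change 1.07 ± 0.18 (SE), edgeR adjusted p = 0.0259). Mvd, the decarboxylase (chromosome 8, 122433601 to 122443422), had 13.9, 13.3 and 16.4 CPM in SPF WT and 26.7, 43.2 and 43.2 CPM in GF WT livers. GF WT replicate 1 was the lowest of its group but still above all SPF WT livers (log2 fold change 1.38 ± 0.22 (SE), edgeR adjusted p = 0.0233). Idi1, the isopentenyl isomerase, came close to the threshold with 11.4, 6.75 and 5.99 CPM in SPF WT and 15, 16.5 and 25.7 CPM in GF WT livers (log2 fold change 1.25 ± 0.27 (SE), edgeR adjusted p = 0.059).

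The steps that join farnesyl units into squalene and close the sterol rings followed the same direction. Fdft1, squalene synthase, had 84.6, 76.2 and 80 CPM in SPF WT and 125, 168 and 190 CPM in GF WT livers (log2 fold change 1.0 ± 0.20 (SE), edgeR adjusted p = 0.0477). Sqle, squalene epoxidase, had 55.8, 51.4 and 46 CPM in SPF WT and 101, 130 and 115 CPM in GF WT livers (log2 fold change 1.18 ± 0.22 (SE), edgeR adjusted p = 0.0328). Lss, which closes the rings to give lanosterol (chromosome 10, 76531588 to 76557138), had 38.7, 44.3 and 55.9 CPM in SPF WT and 104, 102 and 127 CPM in GF WT livers. For each of these 3 enzymes the GF WT livers were the higher group without overlap, and Lss had the larger difference (log2 fold change 1.26 ± 0.23 (SE), edgeR adjusted p = 0.0300). Tm7sf2, a sterol reductase, had 177, 127 and 116 CPM in SPF WT and 250, 269.5 and 245 CPM in GF WT livers (log2 fold change 0.87 ± 0.16 (SE), edgeR adjusted p = 0.0339). Nsdhl, which removes methyl groups from the ring, had 71.5, 51.1 and 53.9 CPM in SPF WT and 131, 134 and 126 CPM in GF WT livers (log2 fold change 1.15 ± 0.23 (SE), edgeR adjusted p = 0.0477). Ebp, the sterol isomerase (chromosome X, 8185329 to 8193512), had 235, 196 and 226 CPM in SPF WT and 366, 379.5 and 376 CPM in GF WT livers. Ebp had the smallest adjusted p of the list, with replicates close together on both sides (log2 fold change 0.77 ± 0.10 (SE), edgeR adjusted p = 0.011). Srebf2, the gene of SREBP2, overlapped between the groups (log2 fold change 0.21 ± 0.17 SE, edgeR adjusted p = 0.564).

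**Figure D3:**
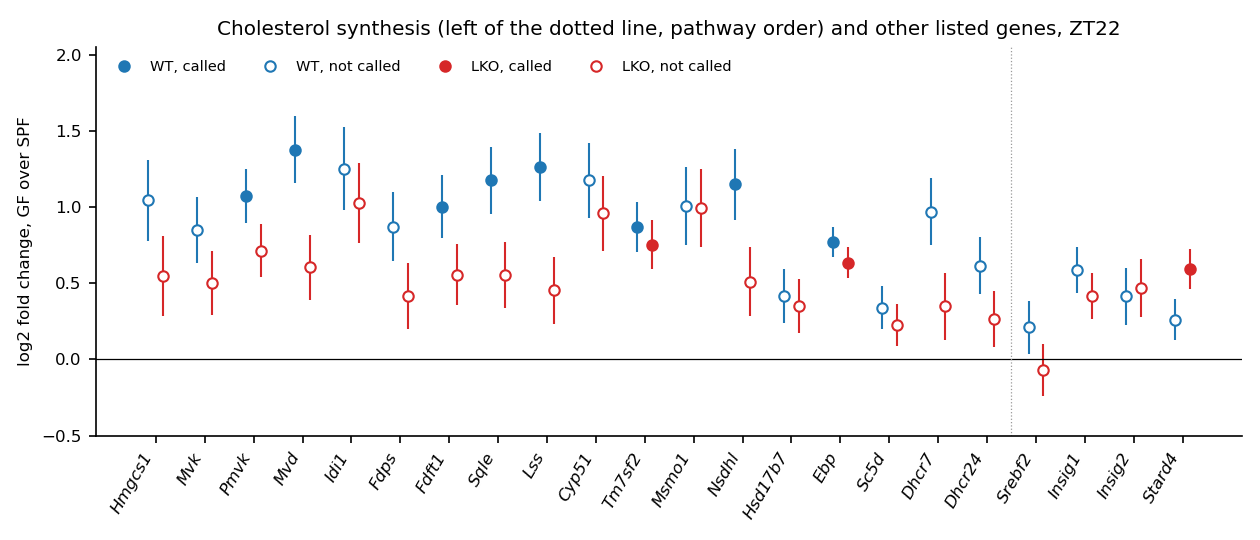
Log2 fold change of GF over SPF at ZT22 with its standard error for 22 of the 25 listed genes, in WT (blue) and LKO (red) mice, 3 livers a group, with filled points for an adjusted p under 0.05. In WT mice all 22 points lie above 0 and 8 are filled, and in LKO mice 3 are filled.

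Promoter sequence was read for these genes because 8 of them rose. RefSeq windows (GRCm38.p6) were at hand for 6 of the 8 called members (7 windows). The 250 bases before the start held CCAAT, in either strand, in 6 of the 7 windows, at least 1 for each gene. Of all 32851 windows of this length, 33.8% held it. GGGCGG, the core of a GC box, was in 5 of the 7, against 32.7% of all windows. TCACNCCAC, the letters of the sterol regulatory element, was in 0 of the 7 and in 1.05% of all windows. Over the whole list 17 of 25 genes had a window (22 windows). CCAAT was in 17 of the 22, at least 1 for each gene, and TCACNCCAC in 1 (Hmgcs1). Among the 75 windows of 56 called genes, 35 held CCAAT, in 31 genes. The CCAAT box is bound by NF-Y, which is known to act beside SREBP in promoters of this pathway, but a match of letters is no evidence of binding. The windows of 3 called members are printed 5′ to 3′ on the strand of the gene, with CCAAT or its reverse complement in capitals, from chr8:122443423-122443672 (minus strand), chr10:76531355-76531604 (plus strand) and chrX:8193513-8193762 (minus strand).
Mvd: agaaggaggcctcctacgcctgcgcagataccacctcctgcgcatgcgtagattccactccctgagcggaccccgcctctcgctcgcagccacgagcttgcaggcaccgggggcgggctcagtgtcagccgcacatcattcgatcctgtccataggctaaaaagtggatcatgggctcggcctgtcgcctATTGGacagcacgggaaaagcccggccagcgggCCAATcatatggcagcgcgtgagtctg
Lss: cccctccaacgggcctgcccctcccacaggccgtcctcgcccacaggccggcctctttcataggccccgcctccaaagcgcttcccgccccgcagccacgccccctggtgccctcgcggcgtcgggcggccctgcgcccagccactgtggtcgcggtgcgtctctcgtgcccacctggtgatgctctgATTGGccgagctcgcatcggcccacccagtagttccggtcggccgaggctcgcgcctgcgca
Ebp: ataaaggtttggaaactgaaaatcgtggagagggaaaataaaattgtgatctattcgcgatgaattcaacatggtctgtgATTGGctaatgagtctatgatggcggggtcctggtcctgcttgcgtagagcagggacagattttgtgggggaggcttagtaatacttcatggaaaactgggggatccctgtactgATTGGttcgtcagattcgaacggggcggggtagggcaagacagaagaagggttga

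Few fatty acid genes beside this pathway were called. Acss2, which makes acetyl-CoA from acetate in the cytosol and nucleus, had 186, 179 and 252 CPM in SPF WT and 552, 517 and 449.8 CPM in GF WT livers. GF WT livers were the higher group by a wide margin, with means going from 206 ± 40.1 (SD, n = 3) to 506 ± 51.8 CPM (SD, n = 3), 2.46-fold higher (log2 fold change 1.30 ± 0.22 (SE), edgeR adjusted p = 0.028). It was the only called member of 15 tested genes of de novo lipogenesis (0.346% of all genes tested were called higher). The list median was 0.28, and 0.15 without SPF WT replicate 1. Fasn, fatty acid synthase, and Scd1, the stearoyl-CoA desaturase, overlapped between the groups, with log2 fold changes of 0.28 ± 0.32 and 0.26 ± 0.26 (SE). Fads2, which introduces the first double bond in polyunsaturated fatty acid synthesis, had 430.1, 350.2 and 439 CPM in SPF WT and 698, 793 and 694 CPM in GF WT livers. It rose without overlap (log2 fold change 0.84 ± 0.13 (SE), edgeR adjusted p = 0.0202). Its partner Fads1 had 438, 322 and 375 CPM in SPF WT and 578, 652 and 568 CPM in GF WT livers and did not pass (log2 fold change 0.66 ± 0.15 (SE), edgeR adjusted p = 0.0655). Fads2 was the only called member of 11 genes for long and unsaturated fatty acids, again against 0.346% of all genes tested called higher. Rdh11, a retinol dehydrogenase, had 82, 83.3 and 101 CPM in SPF WT and 177, 179 and 182 CPM in GF WT livers, and its GF WT replicates were close together (log2 fold change 1.02 ± 0.15 (SE), edgeR adjusted p = 0.0188). Pemt, which makes phosphatidylcholine in the liver, had 274, 214 and 273 CPM in SPF WT and 404, 404 and 428 CPM in GF WT livers (log2 fold change 0.70 ± 0.12 (SE), edgeR adjusted p = 0.0300). It was the only called member of 23 genes of methionine and one-carbon metabolism (0.346% of all genes tested were called higher). Of these 23, 18 had a log2 fold change above 0 (median 0.30) and 11 had an unadjusted p under 0.05. The groups did not overlap in 10 that were higher and 1 that was lower (10.7% and 8.94% of all genes tested). DESeq2 called 6 higher and 1 lower, and edgeR without SPF WT replicate 1 called 7 higher (median 0.37).

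Bile acid genes showed 1 call. Cyp2c70, the mouse enzyme that turns chenodeoxycholic acid into muricholic acids, had 692, 833 and 840.2 CPM in SPF WT and 1355, 1358 and 1487 CPM in GF WT livers. The groups were well apart (log2 fold change 0.83 ± 0.16 (SE), edgeR adjusted p = 0.044), with an increase of 1.78-fold. Cyp7a1, the rate-limiting enzyme of bile acid synthesis, varied widely within each group, with 268, 225 and 97.4 CPM in SPF WT and 58.5, 138 and 428 CPM in GF WT livers, so its difference could not be told from the spread (log2 fold change 0.08 ± 0.61 SE). Cyp8b1, the sterol 12-hydroxylase, overlapped too (log2 fold change 0.29 ± 0.25 SE). Of 15 tested genes of bile acid synthesis, 1 was called higher and 0 lower (0.346% and 0.169% of all genes tested). The median was 0.22, and DESeq2 called 2 higher and 1 lower. Without SPF WT replicate 1 the median was 0.36, and edgeR called 1 higher and 1 lower, the latter Cyp46a1. Cyp46a1, cholesterol 24-hydroxylase, was near the floor of detection with 1.41, 1.65 and 1.69 CPM in SPF WT and 0.496, 0.344 and 0.495 CPM in GF WT livers (log2 fold change -1.82 ± 0.42 (SE), edgeR adjusted p = 0.0679). Among 18 genes of bile acid sensing and transport none was called by edgeR or by DESeq2 (median 0.04, and -0.01 without SPF WT replicate 1), and at an unadjusted p under 0.05 there were 4. Slc10a1, the sodium-dependent uptake transporter, had 593, 602 and 710.2 CPM in SPF WT and 752, 827 and 774 CPM in GF WT livers (log2 fold change 0.30 ± 0.11 (SE), edgeR adjusted p = 0.175), and Abcc4, an efflux pump, had 3.22, 4.15 and 3.91 CPM in SPF WT and 2.67, 2.3 and 2.23 CPM in GF WT livers (log2 fold change -0.65 ± 0.19 (SE), edgeR adjusted p = 0.129). Nr0b2, the FXR target SHP, overlapped between the groups (log2 fold change -0.45 ± 0.24 SE).

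Conjugation enzymes moved in both directions. Gstp1, a glutathione S-transferase, had 1268, 1327 and 852 CPM in SPF WT and 673, 523 and 436 CPM in GF WT livers. SPF WT replicate 3 was the lowest of its group and GF WT replicate 1 the highest of the other, with no overlap (log2 fold change -1.08 ± 0.22 (SE), edgeR adjusted p = 0.0477). Reads of Gstp1 may also fit its near-identical neighbours and may have been left out or shared, so its level is uncertain. Sult1a1, which sulfates phenols such as those bacteria produce, had 394, 292 and 356 CPM in SPF WT and 589, 603 and 658 CPM in GF WT livers. It was higher in each GF WT liver (log2 fold change 0.83 ± 0.15 (SE), edgeR adjusted p = 0.0300). The list of 38 tested genes had these 2 calls, 1 in each direction, and a median of 0.04 (0.11 without SPF WT replicate 1). Gstp1 also counted among 23 tested male-biased genes that growth hormone controls, of which the other call was Hsd3b5 (list median 0.39). The shares to set beside both lists were 0.346% of all genes tested called higher and 0.169% called lower. Hsd3b5, a steroid dehydrogenase of male liver, had 149.6, 156 and 164 CPM in SPF WT and 248, 324 and 350.4 CPM in GF WT livers, higher in each GF WT liver (log2 fold change 0.97 ± 0.14 (SE), edgeR adjusted p = 0.0188).

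Among the other large increases, Gpx6 (chromosome 13, 21312125 to 21319624), a member of the glutathione peroxidase family, was the most firmly called. It had 1.02, 1.65 and 1.88 CPM in SPF WT livers (replicates 1, 2 and 3) and 12.2, 11.4 and 12.6 CPM in GF WT livers. The GF WT livers were close to each other and far above the SPF WT livers, with means going from 1.52 ± 0.448 (SD, n = 3) to 12.1 ± 0.585 CPM (SD, n = 3), an increase of 7.87-fold (log2 fold change 2.98 ± 0.24 (SE), edgeR adjusted p = 9.83e-05). Cav1, which encodes the coat protein of caveolae and is abundant in endothelium and fat cells, had 5.42, 6.95 and 5.12 CPM in SPF WT and 18.6, 21 and 14.5 CPM in GF WT livers. It rose in each GF WT liver (log2 fold change 1.63 ± 0.27 (SE), edgeR adjusted p = 0.0263). Mtnr1a, the melatonin receptor 1A, was a low transcript with 2.6, 1.55 and 1.64 CPM in SPF WT and 4.84, 5.05 and 5.39 CPM in GF WT livers (log2 fold change 1.41 ± 0.23 (SE), edgeR adjusted p = 0.0263). Gm5096, a predicted gene, had 1.64, 1.25 and 1.5 CPM in SPF WT and 3.48, 4.36 and 4.33 CPM in GF WT livers (log2 fold change 1.47 ± 0.22 (SE), edgeR adjusted p = 0.0202). Of 8 listed markers of sinusoidal endothelium 0 were called (2 at an unadjusted p under 0.05, 0 by DESeq2) and 1 had a log2 fold change above 0, with overlapping sums (summed CPM 302 to 328 in SPF WT and 249.9 to 320.4 in GF WT livers). The 5 adipocyte markers had too few counts to test, and their sums (0.05 to 0.29 CPM in SPF WT and 0.31 to 0.743 CPM in GF WT livers) did not overlap. Moxd1 and Tff3, low transcripts picked after their values were seen, were also called higher. Moxd1 had 3, 1 and 0 counts in SPF WT replicates 1, 2 and 3 and 97, 217 and 111 counts in the GF WT replicates. Tff3, a trefoil factor, had 15, 15 and 10 counts in SPF WT and 147, 29 and 87 counts in GF WT livers.

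Most of the other decreases of a log2 fold change over 1 in size were of genes with low levels. Mapk15, an atypical MAP kinase, had 8.31, 10.4 and 10.3 CPM in SPF WT and 3.16, 4.13 and 3.53 CPM in GF WT livers (log2 fold change -1.42 ± 0.19 (SE), edgeR adjusted p = 0.0138). Rps6ka1, a ribosomal S6 kinase, had 7.4, 7.2 and 8.98 CPM in SPF WT and 3.1, 2.93 and 2.72 CPM in GF WT livers (log2 fold change -1.43 ± 0.23 (SE), edgeR adjusted p = 0.0233). Peg3, an imprinted gene for a zinc finger protein, had 9.94, 13.4 and 11.4 CPM in SPF WT and 4.41, 4.77 and 2.85 CPM in GF WT livers (log2 fold change -1.53 ± 0.24 (SE), edgeR adjusted p = 0.0233). These 3 were lower in each GF WT liver and had small spread. Sdr9c7, a short-chain dehydrogenase, was more abundant, with 101, 92.8 and 67 CPM in SPF WT and 47.5, 28.5 and 37.8 CPM in GF WT livers (log2 fold change -1.20 ± 0.19 (SE), edgeR adjusted p = 0.0225). Pyroxd2 had 11.1, 16.9 and 14.9 CPM in SPF WT and 7.63, 5.63 and 5.63 CPM in GF WT livers (log2 fold change -1.19 ± 0.18 (SE), edgeR adjusted p = 0.0202). The predicted gene Gm4673 fell by 1.84 on the log2 scale, and Fbf1, Sall2 and Zfp692, of which Sall2 and Zfp692 encode zinc finger proteins, fell by 1.20, 1.13 and 1.13 on the log2 scale, with means below 10 CPM in both groups.

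Of 6 hepatocyte markers 1 was called higher and 0 lower by edgeR (0.346% and 0.169% of all genes tested), and 3 higher by DESeq2. The called marker, Serpina1a, an alpha-1-antitrypsin gene, had 1016, 810 and 860.2 CPM in SPF WT and 1338, 1347 and 1342 CPM in GF WT livers (log2 fold change 0.58 ± 0.12 (SE), edgeR adjusted p = 0.0477). Its GF WT replicates were nearly equal. Apoa1, the main protein of HDL, had 7371, 7273 and 6999 CPM in SPF WT and 12532, 10025 and 11424 CPM in GF WT livers, without overlap and without passing the test (log2 fold change 0.65 ± 0.16 (SE), edgeR adjusted p = 0.0774). Picked out with values already seen, the called genes also held Serpina1b and Serpina1d, near copies of Serpina1a whose reads are hard to assign, the coagulation factors F10 and F11, kininogen Kng1 and fetuin Ahsg. F11 had 71.5, 62.1 and 68.2 CPM in SPF WT and 113, 101 and 111 CPM in GF WT livers, and Kng1 had 1621, 1809 and 1879.5 CPM in SPF WT and 2748, 2528 and 2732 CPM in GF WT livers. Their log2 fold changes ran from 0.58 (Ahsg) to 0.69 (F11), and none overlapped. Among 29 tested acute phase genes 0 were called (3 without SPF WT replicate 1, all higher), although 25 had a log2 fold change above 0 and the median was 0.40, with 10 at an unadjusted p under 0.05 and 4 called by DESeq2. Hp, haptoglobin, had 2597, 2196 and 2214 CPM in SPF WT and 3413, 3228 and 3901 CPM in GF WT livers (log2 fold change 0.59 ± 0.13 (SE), edgeR adjusted p = 0.0633). Apcs, serum amyloid P, had 62.8, 48.9 and 65.9 CPM in SPF WT and 91.3, 97.8 and 181 CPM in GF WT livers, with GF WT replicate 3 well above the rest (log2 fold change 1.06 ± 0.24 (SE), edgeR adjusted p = 0.0663). The summed hepatocyte markers, dominated by Alb, were higher in GF WT livers too, and their part in these small increases was not tested.

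No clock gene passed the test. Arntl, the gene of BMAL1 and the floxed gene, had 34.1, 35.2 and 40.2 CPM in SPF WT and 41.4, 34.3 and 34.5 CPM in GF WT livers, overlapping between the groups (log2 fold change 0.01 ± 0.15 (SE), edgeR adjusted p = 0.98). The LKO livers of this hour had 16.8, 13.8 and 12.4 CPM (SPF) and 9.84, 11.1 and 13.7 CPM (GF), each below every WT liver. Of 17 tested clock genes and outputs 0 were called by edgeR and 2 by DESeq2, and 2 had an unadjusted p under 0.05. Nr1d2, a REV-ERB repressor, was one of the latter, with 19.3, 18.2 and 26.6 CPM in SPF WT and 15.7, 13.7 and 12.1 CPM in GF WT livers, without overlap (log2 fold change -0.62 ± 0.17 (SE), edgeR adjusted p = 0.104). Without SPF WT replicate 1, edgeR called 1 gene of the list, higher in GF. Per1 followed the replicate number more than the group, with 22.5, 26.6 and 0.869 CPM in SPF WT and 25.1, 17.1 and 2.97 CPM in GF WT livers, and the 3 Per genes, Cry1, Cry2, Npas2, Clock, Nr1d1, Dbp, Tef, Hlf and Nfil3 had log2 fold changes between -0.29 (Nr1d1) and 0.42 (Cry1).

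Genes of glucose metabolism did not pass edgeR's test at this hour. Pck1, the cytosolic PEP carboxykinase and a control point of gluconeogenesis, ranged widely within each group, with 3427, 2642 and 733 CPM in SPF WT and 5239, 2254 and 945 CPM in GF WT livers (log2 fold change 0.31 ± 0.57 (SE), edgeR adjusted p = 0.821). Pck2, its mitochondrial form, was scarce, with 2.54, 3.00 and 2.61 CPM in SPF WT and 1.12, 1.49 and 1.36 CPM in GF WT livers, without overlap (log2 fold change -1.03 ± 0.23 (SE), edgeR adjusted p = 0.066). Fbp1, fructose bisphosphatase, had a log2 fold change of 0.04 ± 0.15 (SE), and Eno1, an enolase of glycolysis, had a log2 fold change of 0.35 ± 0.14 (SE). Of 14 gluconeogenesis genes and 18 genes of glycolysis and glucose uptake none was called by edgeR, with 6 of each list at an unadjusted p under 0.05. DESeq2 called 2 of the first list, Pck2 lower and 1 gene higher, and 3 of the second, all higher. Pck2 kept its direction under all 12 alternatives and was called in 3. Without SPF WT replicate 1, Pck2 was called lower, 1 gene of each list was called higher, and the gluconeogenesis median was 0.25 in place of 0.14. Of the lipid genes the study names, Ppara (log2 fold change -0.17 ± 0.17 SE), Cpt1a (0.21 ± 0.17), Fabp1 (0.38 ± 0.20) and Aldh3a2 (0.11 ± 0.17) were not called. None of 24 PPARA targets and none of 24 genes of mitochondrial fatty acid oxidation and ketone synthesis was called by edgeR. At an unadjusted p under 0.05 there were 6 and 8, and DESeq2 called 1 and 3. Of the latter list 23 had a log2 fold change above 0 (median 0.22), and the median of the former was 0.20.

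Immune transcripts were sparse and 1 stood out. Igha (chromosome 12, 113254830 to 113260236), the constant region of the IgA heavy chain, made by plasma cells, had 24, 20 and 30 counts in SPF WT replicates 1, 2 and 3 and 3, 0 and 1 counts in GF WT replicates 1, 2 and 3. As CPM these were 1.36, 1.0 and 1.45 and 0.186, 0 and 0.0619, with no overlap (log2 fold change -3.87 ± 0.69 (SE), edgeR adjusted p = 0.0300). The fitted fold of so few counts depends on the prior count. Other markers of B and plasma cells were not lower together. Jchain had 2.49, 2.1 and 1.69 CPM in SPF WT and 1.61, 1.78 and 1.67 CPM in GF WT livers, Ighm had 5.37, 2.65 and 5.99 CPM in SPF WT and 5.77, 6.37 and 5.51 CPM in GF WT livers, and the 9 markers summed to 8.25 to 14.6 CPM in SPF WT and 10.9 to 13.1 CPM in GF WT livers. The 10 Kupffer cell markers summed to 380.2 to 438 and 313 to 415 CPM, 0 of them called by edgeR or DESeq2, 0 at an unadjusted p under 0.05, and 9 of 10 with a log2 fold change below 0. By edgeR no member was called among 44 interferon-stimulated genes (7 at an unadjusted p under 0.05, and Oas2 called lower without SPF WT replicate 1), 18 genes of MHC class I presentation (2, and H2-T23 called higher without SPF WT replicate 1), 8 MHC class II genes (0, median -0.28, and -0.02 without SPF WT replicate 1) and 21 genes of endotoxin and Toll-like receptor sensing (1), and DESeq2 called 1 interferon-stimulated gene and none of the others. Lbp, the lipopolysaccharide-binding protein, had a log2 fold change of 0.03 ± 0.19 (SE). Markers of stellate cells, cholangiocytes, T and NK cells, neutrophils and monocytes, dendritic cells and red cells held 0 called genes by edgeR, 3 at an unadjusted p under 0.05 and 1 by DESeq2 (Alas2, of red cells, was called higher without SPF WT replicate 1).

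The remaining lists gave medians above 0 more often than calls. Of 42 tested genes of amino acid catabolism and the urea cycle 38 had a log2 fold change above 0 (median 0.30) and 0 were called, with 22 at an unadjusted p under 0.05 (9 called by DESeq2, and 4 called higher without SPF WT replicate 1). Fah, the last enzyme of tyrosine breakdown, was nearest with 549.8, 443 and 535 CPM in SPF WT and 682, 784 and 736 CPM in GF WT livers (log2 fold change 0.53 ± 0.11 (SE), edgeR adjusted p = 0.0512). Of 81 ribosomal protein genes 65 were above 0 (median 0.34) and 0 were called, with 43 at an unadjusted p under 0.05 and 9 called by DESeq2, and without SPF WT replicate 1 the median was 0.49 with 11 called higher and 3 called lower. Heat shock and endoplasmic reticulum chaperones (32 genes, median 0.33), glycogen metabolism (17, 0.10), glucocorticoid-responsive genes (18, -0.03), cell cycle genes (20, -0.20), female-biased genes (9, 0.46) and the mitochondrial chromosome (7, 0.14) also held 0 genes called by edgeR. Of these lists, in the same order, 16, 2, 1, 1, 3 and 1 genes passed an unadjusted p of 0.05, while DESeq2 called 3 chaperones, 2 female-biased genes and none of the others. Without SPF WT replicate 1, 2 chaperone genes and 1 glucocorticoid-responsive gene were called higher and none of the other 4 lists had a call. The medians were then 0.57 for chaperones, 0.12 for glucocorticoid-responsive genes, which is the opposite sign, and 0.21 for female-biased genes. Hspa5, the main chaperone of the endoplasmic reticulum, overlapped between groups with 1071, 836 and 699 CPM in SPF WT and 1607, 1009 and 1793 CPM in GF WT livers. Among the female-biased genes, Cyp2c69 had 0.282, 0.55 and 0.145 CPM in SPF WT and 0.869, 13.6 and 8.29 CPM in GF WT livers, so GF WT replicates 2 and 3 carried its difference (log2 fold change 4.52 ± 0.97 (SE), edgeR adjusted p = 0.0568). Nnt, checked because colonies of C57BL/6 mice can differ in this gene, was at 1.92, 1.4 and 1.26 CPM in SPF WT and 1.05, 0.861 and 1.86 CPM in GF WT livers and did not separate the groups (log2 fold change -0.28 ± 0.41 (SE), edgeR adjusted p = 0.776).

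**Figure D4:**
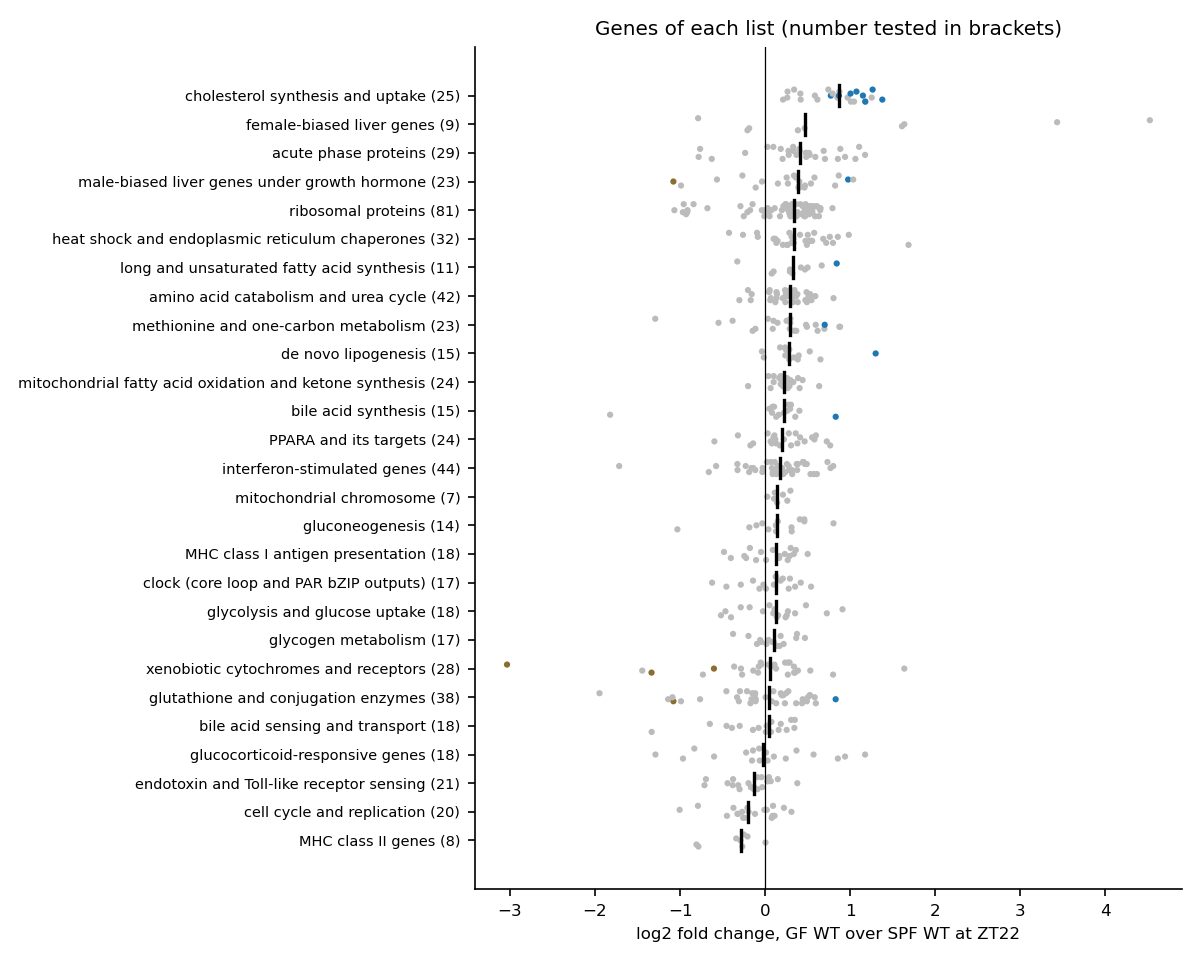
Each point is a tested gene of a list and its position the log2 fold change of GF WT over SPF WT livers at ZT22 (3 against 3), with black bars at the list medians and coloured points for genes called higher (blue) or lower (brown). Cholesterol synthesis has the highest median (0.87) and 8 called genes, while 3 genes of the xenobiotic list are called lower.

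The LKO livers of the same hour are separate mice. There GF against SPF called 305 genes (2.25%), 194 higher (1.43%) and 111 lower (0.818%). Of the 70 genes called in WT mice, 63 had the same direction in LKO mice (90%, against 71.8% of all genes tested) and 35 were called there in that direction. Cyp3a11 fell in LKO mice as well (log2 fold change -5.01, edgeR adjusted p = 6.34e-06), and the difference between the genotypes, WT minus LKO, was not called (1.98 ± 0.39 SE, edgeR adjusted p = 0.433). The cholesterol list had 3 called members in LKO mice and a median of 0.51, and none of its 25 genes passed the test of the difference. The test of that difference called 2 of 13576 genes (0.0147%) by edgeR, with 514 at an unadjusted p under 0.05 and 11 by DESeq2. Gpx6 was one of these. It had 1.02, 1.65 and 1.88 CPM in SPF WT, 12.2, 11.4 and 12.6 in GF WT, 0.345, 0.479 and 0.687 in SPF LKO and 0.484, 0.473 and 0.381 CPM in GF LKO livers (difference 3.15 ± 0.42 SE, edgeR adjusted p = 0.0247). The GF livers were above the SPF livers in WT mice, and the groups overlapped in LKO mice (log2 fold change -0.17). Ces1e, a carboxylesterase, was the other gene, with 296, 246 and 296 CPM in SPF WT, 409, 400.2 and 379.6 in GF WT, 125, 120.03 and 109.9 in SPF LKO and 56.5, 67.6 and 68.4 CPM in GF LKO livers (difference 1.39 ± 0.16 SE, edgeR adjusted p = 0.00817). All 3 GF WT livers were above the SPF WT livers and all 3 GF LKO livers below the SPF LKO livers. The call for Gpx6 was lost without any 1 of 8 libraries: SPF WT replicate 2, GF WT replicates 1, 2 and 3, SPF LKO replicates 2 and 3, and GF LKO replicates 1 and 3 (edgeR adjusted p 0.0804 to 0.162). Ces1e kept its call without each of the 12 libraries, and without GF LKO replicate 2 the difference of Cyp3a11 was called (2.39 ± 0.32 SE, edgeR adjusted p = 0.0387).

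WT mice of the other 5 ZT are separate mice as well. Of the 70 called genes, 69 had the same direction at ZT2 (74.4% of all genes tested had it), 68 at ZT6 (70.4%), 67 at ZT10 (62.7%), 63 at ZT14 (67.2%) and 68 at ZT18 (70.4%), and 63 had it at all 5 (90%, against 26.6% of all genes). The clock genes of SPF WT ZT14 replicate 3 and GF WT ZT6 replicate 3 stood apart from their groups. Arntl was at 2.23 CPM (unscaled) in the first, against 15.9 and 19.3 in its group, and at 7.43 in the second, against 1.47 and 2.16 in its group. Nr1d1 was at 89.5 in the first, against 8.62 and 3.07 in its group and 56.5, 60.6 and 82 in SPF WT ZT6 livers. In the second it was at 8.47, against 45.8 and 43.9 in its group and 5.82, 4.99 and 4.33 in GF WT ZT14 livers. The cause was not tested. Without both libraries, 66 of the 70 genes had the direction at all 5 ZT (29% of all genes). The test of ZT22 against the mean of the other 5 ZT called 0 of 14090 genes by edgeR and 0 by DESeq2, with 389 at an unadjusted p under 0.05, and 1 gene, Tbc1d30, without those 2 libraries. The log2 fold change of Cyp3a11 in the fit of the 36 WT libraries was nearest to 0 at ZT6, -0.93 ± 0.60 (SE), and lay between -2.47 (ZT14) and -3.27 (ZT10) at the others. Without the 2 libraries it was -2.79 at ZT6, between -2.71 (ZT2) and -3.25 (ZT10). That of Gpx6 lay between 1.83 at ZT10 and 3.09 at ZT2. The cholesterol list had its highest median at ZT2, 1.55 with 19 called members, where 8.5% of all 14090 genes were called. At ZT6 the median was 0.41 with 2 called (2.16% of all genes), at ZT10 0.95 with 2 (0.738%), at ZT14 0.71 with 1 (0.837%), at ZT18 1.25 with 5 (0.561%), and at ZT22 in this fit 0.84 with 4 (0.979%). These counts moved when the 2 libraries that stood apart were left out of the fit. Without both (14353 genes tested), 21 members were called at ZT2 (median 1.57, 10.1% of all genes), 7 at ZT6 (0.70, 1.88%), 17 at ZT10 (0.97, 2.35%), 18 at ZT14 (1.38, 1.69%) and 16 at ZT18 (1.26, 1.73%). In the fit of all 36 WT libraries, the called genes that did not keep their direction at all 5 ZT were few. Gm34667 kept it at 1, Mtnr1a and Hsd17b6 at 2, Slc35b1 at 3, and Gm31121, Hsd3b5 and Ccdc162 at 4. Mtnr1a was at 1.10 and 0.82 at ZT2 and ZT6 but -0.14, -0.30 and -0.25 at ZT10, ZT14 and ZT18. Its difference between ZT22 and the other ZT was not called (1.13, edgeR adjusted p = 1).

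**Figure D5:**
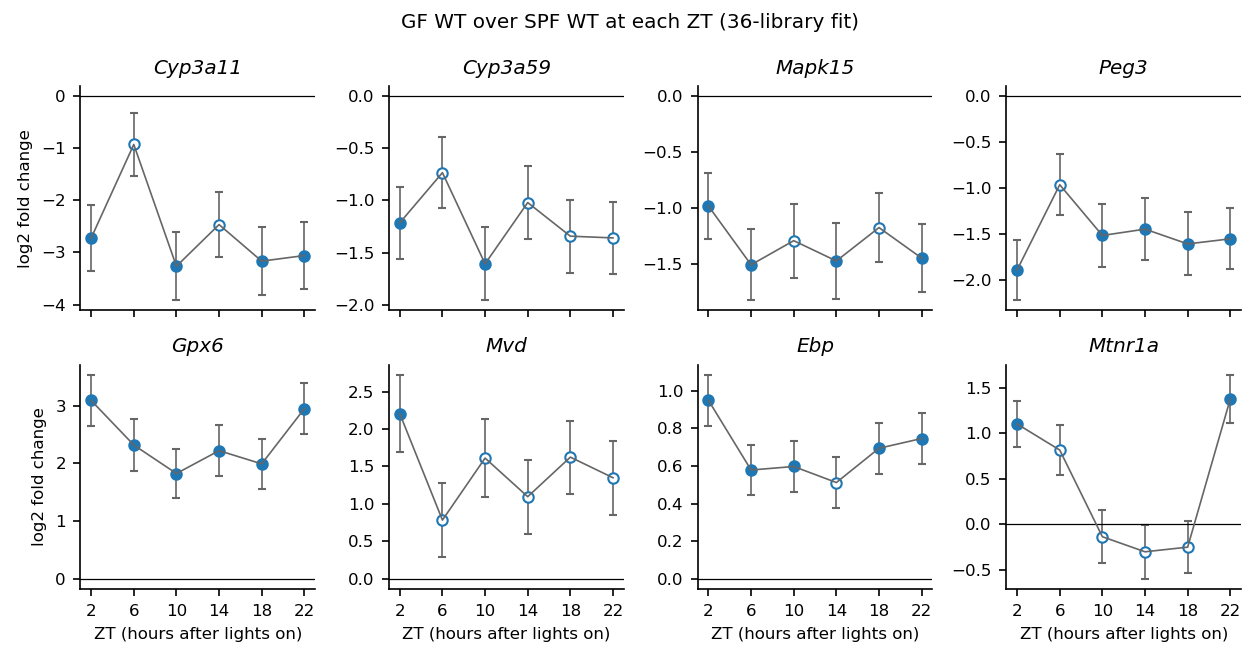
Log2 fold change of GF WT over SPF WT livers with its standard error at each ZT, from 1 fit of the 36 WT libraries (3 livers a group and ZT), with filled points for an adjusted p under 0.05 in that fit. Cyp3a11, Cyp3a59, Mapk15 and Peg3 lie below 0 and Gpx6, Mvd and Ebp above 0 at all 6 ZT, and Mtnr1a crosses 0. The fit holds the 2 libraries whose clock genes stood apart, SPF WT ZT14 replicate 3 and GF WT ZT6 replicate 3. Without them Cyp3a11 was at -2.79 at ZT6.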

How the data were processed

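Whole-liver RNA was prepared with a stranded mRNA kit and sequenced as single 50-base reads. The authors aligned reads with STAR 2.6.1b to mm10 and counted them over exons with featureCounts 2.0.0 (Ensembl 97). The deposited table holds raw counts per gene (55573 genes, 72 libraries, 17369927 to 22076113 assigned counts), and its header names no strand or multimapping option. Reads that fit antisense, overlapping or near-identical genes may have been left out or shared, so the levels of such genes are uncertain.

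Libraries were grouped by their labels. Counts were scaled by TMM, filtered with filterByExpr (13576 genes kept) and fitted with edgeR 4.0.16 (R 4.3.3; glmQLFit and glmQLFTest, Benjamini-Hochberg, 0.05) over the 12 libraries of ZT22 with 4 group means. Contrasts gave GF against SPF in WT and LKO and their difference. The 36 WT libraries were fitted likewise to set ZT22 against the mean of the other 5 ZT. CPM are counts per 1000000 of the TMM-scaled library. Alternatives were DESeq2 1.42.0, its size factors, no filter, other library sets, a replicate block, a fold limit and each library left out. The edgeR script was tested on simulated data. The labels do not state that replicates were separate mice, so p-values measure the spread between these samples.

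Members and gene lists (29 of function, 12 of markers) were chosen with earlier results of these data known. Named genes were the 12 largest called increases and decreases whose mean log2 CPM was 1 or more and whose groups did not overlap, up to 4 called members of each list by p (filled to 2), genes the study or the clock names, Nnt, and genes called in the difference between genotypes. All other genes were named after their values were seen. Promoters came from RefSeq (GRCm38.p6). Some genes that the rule names are not reported here.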

Additional observations from a re-analysis of the deposited data

Results flagged for a closer look

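For 2 genes the effect of microbial status at ZT22 differed between WT and LKO livers by the test of that difference. Gpx6 differed by 3.15 on the log2 scale (2.98 in WT, -0.17 in LKO, edgeR adjusted p = 0.0247), higher in 3 of 3 GF WT livers. Ces1e differed by 1.39 on the log2 scale (0.50 in WT with edgeR adjusted p = 0.0633, -0.88 in LKO with edgeR adjusted p = 0.00399). Groups of 3 are too small for a test of single outlying samples.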

How the results depend on the processing

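All 70 called genes kept their direction under each of 12 alternatives, and 2 (Cyp3a11 and Gpx6) kept their call in every one. With another scaling (DESeq2's size factors) 70 genes were called, 68 of them among the 70. The count of 70 (47 higher, 23 lower) became 464 (291 and 173) by DESeq2's Wald test and 756 (429 and 327) without a filter on low counts. It was 21 (15 and 6) with only the 6 libraries fitted. With the 36 WT libraries, SPF WT ZT14 replicate 3 and GF WT ZT6 replicate 3 included, it was 138 (96 and 42). With a log2 fold change of at least 1 it was 31 (15 higher). Leaving out 1 library gave 2 to 398 genes, 1 to 223 higher and 1 to 175 lower, and 0 to 12 called members of the cholesterol list, whose median stayed between 0.75 and 0.97. The difference between WT and LKO called 11 genes by DESeq2, 137 without a filter, and 1 to 4 with 1 library left out. The difference between ZT22 and the other ZT called 80 genes without a filter and 1 without SPF WT ZT14 replicate 3 and GF WT ZT6 replicate 3. The cause of these shifts was not tested.

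With the replicate number as a replicate block, 16 genes (9 higher, 7 lower) were called, all among the 70, and 0 in the difference between WT and LKO, where Gpx6 and Ces1e had an edgeR adjusted p of 0.0548. Over all genes tested, same-numbered samples deviated together with r = 0.03, -0.05 and 0.18, and the other pairs with r from -0.16 to 0.15. The second principal component of the 500 most variable genes (28.9% of their variance) fell with the replicate number in both groups. Replicates 1, 2 and 3 scored 12.5, 9.08 and -13.9 in SPF WT and 9.78, 0.844 and -18.4 in GF WT livers. The main fit did not take the numbers to pair the samples, and these values do not settle whether they do. Some genes, given below, did follow the replicate number, and the cause was not tested. At 3 livers a side, differences under the spread between livers were not detectable.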

Other observations

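The called genes not described above, named after their values were seen, included further metabolic enzymes. Acmsd, an enzyme of tryptophan breakdown, had 45.8, 47.2 and 45 CPM in SPF WT and 98.7, 85.3 and 73.2 CPM in GF WT livers (log2 fold change 0.90 ± 0.16 (SE), edgeR adjusted p = 0.0317). Acat2, a cytosolic acetoacetyl-CoA thiolase, had 54.4, 46 and 55.7 CPM in SPF WT and 91.4, 103 and 112 CPM in GF WT livers (log2 fold change 0.97 ± 0.18 (SE), edgeR adjusted p = 0.0316). Both were higher in each GF WT liver. Tmem97, a sterol-regulated membrane protein, rose by 0.78 on the log2 scale. As3mt, arsenite methyltransferase, rose by 0.68, Gstm7 by 0.68, Cyp2c67 by 0.63 and Acsm1 by 0.57 on the log2 scale. The transporters Slc6a12, Slc23a1 and Slc35b1 rose by 0.79, 0.61 and 0.67, and Ddost and Dad1, subunits of the oligosaccharyltransferase that glycosylates secreted proteins, by 0.52 and 0.61 on the log2 scale. Hsd17b6, a steroid dehydrogenase, had 186, 278 and 215 CPM in SPF WT and 139, 110.2 and 111 CPM in GF WT livers, lower in each GF WT liver (log2 fold change -0.92 ± 0.17 (SE), edgeR adjusted p = 0.0351), with 0.12 in LKO mice, a difference between genotypes that was not called (-1.04 ± 0.25 SE, edgeR adjusted p = 0.754). Obp2a, a low transcript with 1.41, 2.2 and 1.01 CPM in SPF WT and 0.248, 0.115 and 0.124 CPM in GF WT livers, was also called lower, as were Dmpk, Camk1 and Plekhb2, which fell by 1.02, 0.71 and 0.65 on the log2 scale.

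Some genes followed the replicate number in both groups. The centred log2 levels of 18 glucocorticoid-responsive genes had medians of 0.64, 0.19 and -0.81 in SPF WT replicates 1, 2 and 3 and 0.40, 0.24 and -0.72 in GF WT replicates 1, 2 and 3. Replicate 3 was the lowest of each group, as it was for Per1 and Pck1.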
